A study of Mus musculus with 2 samples.

Results

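The genes described here encode the laminins, the nidogens, perlecan and most of the integrins, the proteins that build the basement membrane around a muscle fibre and hold the fibre to it. They were taken by symbol from the protein-coding genes of the annotation: every Lama, Lamb and Lamc gene, both nidogens, Hspg2 and the numbered Itga and Itgb genes. This gave 34 genes of 21901 with a protein-coding transcript, namely 5 laminin alpha, 3 laminin beta and 3 laminin gamma chains, 2 nidogens, perlecan, 12 integrin alpha and 8 integrin beta subunits. Total RNA was sequenced from the gastrocnemius, a large muscle of the calf, of 2 male mice aged 4 days. Both were B6CASTF1/J, the first-generation hybrid of C57BL/6J and CAST, untreated as far as the labels say, and they form 1 group of 2 biological replicates with 1 library each. The reference used for mapping is mm10, a C57BL/6J genome, and the handling of reads from the CAST alleles is not given in the sources used here. There is no second group, so levels were compared between genes within a library and the libraries were compared with each other.

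A laminin is a trimer of 1 alpha, 1 beta and 1 gamma chain that assembles into a sheet on the cell surface. Nidogens and perlecan tie that sheet to the collagen IV network, and integrins, each an alpha and a beta subunit, and dystroglycan are the receptors that anchor it to the cell. In skeletal muscle the laminin with the alpha 2 chain and the integrin of alpha 7 and beta 1 are the main pair at the fibre surface, and loss of alpha 2 or alpha 7 causes muscle disease in mice and in people.

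Muscle integrins are known for spliced forms that differ in a single exon, and the exons that carry the transcript results below are shown here. All sequences are coding bases of GENCODE M21 transcripts on the plus strand of mm10, read 5′ to 3′. In Itga7, the X1 and X2 exons are alternatives in the part of the protein outside the cell, near the site that binds laminin. They are exon 5 of 25 in their transcripts, 132 and 120 bases long, and both lengths are multiples of 3, so either keeps the reading frame. X2 lies at chr10:128941822-128941941 and X1 at chr10:128941445-128941576.
Itga7 X2: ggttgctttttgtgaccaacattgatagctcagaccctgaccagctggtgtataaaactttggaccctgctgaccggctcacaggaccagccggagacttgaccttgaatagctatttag
Itga7 X1: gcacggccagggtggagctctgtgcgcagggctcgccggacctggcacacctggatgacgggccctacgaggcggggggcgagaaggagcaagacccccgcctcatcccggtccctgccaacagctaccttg

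The other choice is in the tail inside the cell. Itga7 and Itga6 each have an A exon that can be included or skipped, and the B tail is read from the following exon when it is skipped. Capitals mark bases that are the same at the same position, counted from the exon's start, in all 4 exons over the length of the shortest. There are 11 such bases, and 8 of them lie in the first 18, where the tail leaves the membrane. The Itga7 A exon is at chr10:128956611-128956723 and its B tail at chr10:128957621-128957848. The Itga6 A tail is at chr2:71853534-71853638 and its B tail at chr2:71855854-71856012.
Itga7 A exon: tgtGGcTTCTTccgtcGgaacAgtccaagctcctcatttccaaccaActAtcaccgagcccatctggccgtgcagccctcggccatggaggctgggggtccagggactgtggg
Itga7 B exon: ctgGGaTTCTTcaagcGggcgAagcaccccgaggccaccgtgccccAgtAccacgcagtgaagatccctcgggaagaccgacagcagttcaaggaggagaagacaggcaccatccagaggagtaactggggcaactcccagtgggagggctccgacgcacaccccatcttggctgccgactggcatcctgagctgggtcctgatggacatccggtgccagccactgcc
Itga6 A exon: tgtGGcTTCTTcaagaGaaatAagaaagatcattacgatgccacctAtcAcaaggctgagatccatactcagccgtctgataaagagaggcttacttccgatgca
Itga6 B exon: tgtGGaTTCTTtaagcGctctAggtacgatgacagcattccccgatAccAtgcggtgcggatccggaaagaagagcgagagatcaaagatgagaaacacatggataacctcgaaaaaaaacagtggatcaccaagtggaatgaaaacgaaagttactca

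Itgb1 has a tail of its own kind in striated muscle, beta 1D, which replaces the common beta 1A tail. The coding part of the D exon, 72 bases, is at chr8:128726983-128727054, and the A tail, 63 bases, is at chr8:128732023-128732085. Capitals again mark bases that are the same at the same position, 41 of 63. They include most of the pair of short stretches that carry the tyrosine motifs to which talin and kindlin bind.
Itgb1 D exon: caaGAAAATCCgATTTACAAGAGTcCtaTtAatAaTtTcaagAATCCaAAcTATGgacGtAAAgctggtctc
Itgb1 A exon: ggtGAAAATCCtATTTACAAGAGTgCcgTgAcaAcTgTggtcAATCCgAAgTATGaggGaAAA

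Annotated genes held 32301531 expected counts in replicate 2 and 35281187 in replicate 1. Expected counts are the quantifier's estimates of reads per gene and need not be whole. Levels are in TPM, a transcript abundance scaled for length and depth, and are given per library and as mean ± SD (n = 2). The labelled tissue was borne out by its fibre markers: Acta1, Ckm, Ttn, Myh8 and Tnnt3 were all present, at a summed 27336 TPM in replicate 2 and 29700 TPM in replicate 1. The libraries differed in other cell types. The 10 markers of epidermis and hair follicle summed to 1008 TPM in replicate 2 against 16.3 TPM in replicate 1, and the 6 Schwann cell markers to 761.1 and 335.3 TPM in the same order. In bulk tissue, fewer cells of a type and less RNA per cell cannot be told apart. A two-sided exact sign-flip test of 2 values cannot give a p below 0.5, so no test is given, and gaps are set beside the spread of the 2 animals, which with 1 library per animal holds technical spread too.

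Most of the 34 genes were expressed in this muscle. At 1 TPM or more in both libraries stood 30 of them (88.2%), against 55.5% of all genes with a protein-coding transcript, and 17 stood at 10 TPM or more in both. The median member had 8.995 TPM in replicate 2 and 9.515 TPM in replicate 1, against 2.61 and 2.26 TPM over all protein-coding genes. The levels were uneven: 10 genes at 60 TPM or more (Itgb1, Lamc1, Hspg2, Nid1, Lamb1, Lama2, Lama4, Lamb2, Nid2 and Itga7) held 85.1 ± 1.11% of the summed TPM of all 34. A further 7 lay between 10 and 60 TPM, 13 between 1 and 10 TPM, and 4 (Lamb3, Itgb7, Lamc3 and Lama1) were under 1 TPM in at least 1 library.

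**Figure D1:**
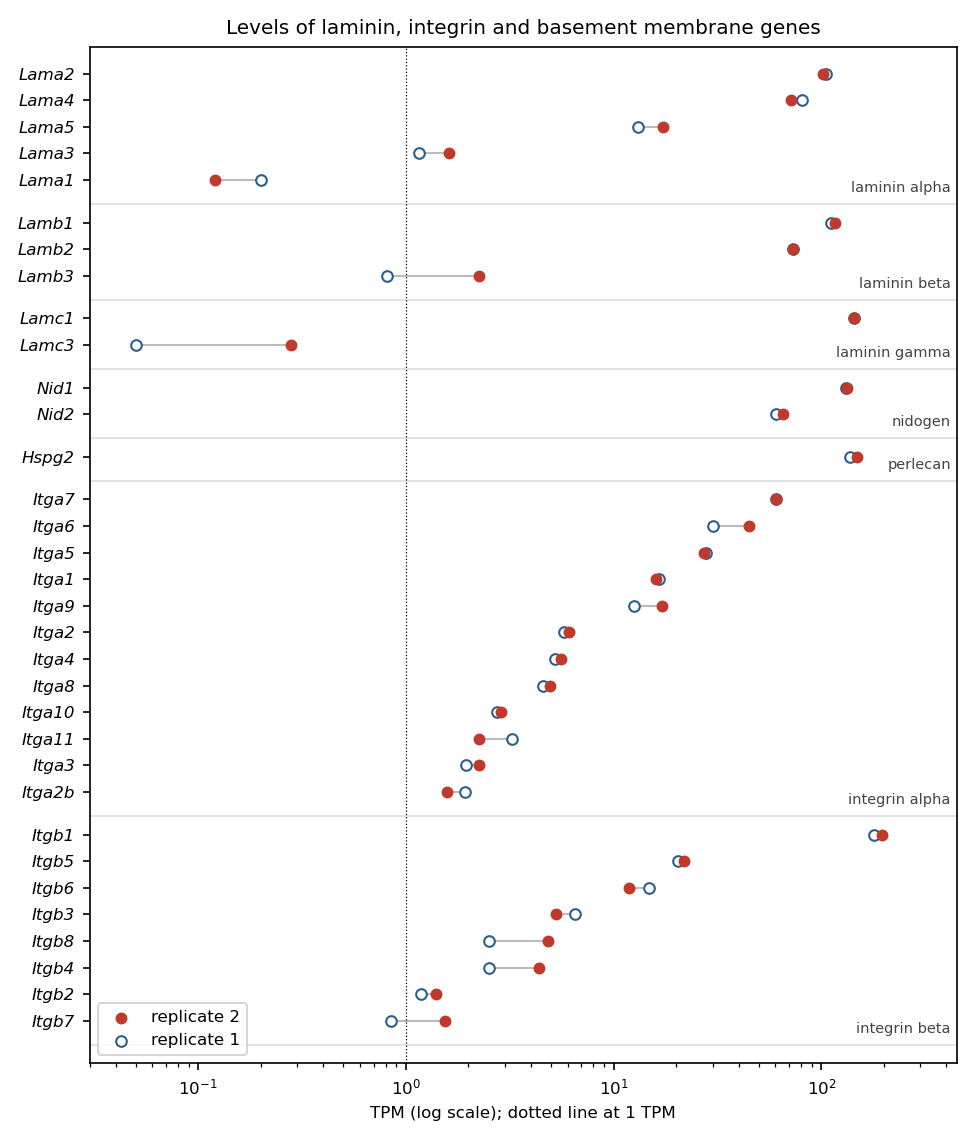
TPM of all but 1 of the 34 genes (log axis) in replicate 2 (filled red) and replicate 1 (open blue), grouped by family and ordered by mean within it; the grey line joins the 2 libraries and the dotted line is at 1 TPM. The major laminin chains, both nidogens, Hspg2, Itga7 and Itgb1 sit at 60 TPM or more with the 2 points almost on each other, while the widest gaps belong to genes of a few TPM or less, such as Lamb3 and Lamc3.

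Among the laminin alpha chains, Lama2 led. Lama2 (chr10:26980036-27619758, minus strand), the muscle chain, had 102.01 TPM in replicate 2 and 105.51 TPM in replicate 1 (103.8 ± 2.47). Lama4, the chain of vessels and of developing muscle and nerve, had 71.78 and 80.34 TPM in replicates 2 and 1. Together they made up nearly all alpha chain RNA: Lama2 held 52.8 ± 0.167% and Lama4 38.7 ± 2.03% of the TPM of the family. The lead of Lama2 over Lama4 was 1.42-fold in replicate 2 and 1.31-fold in replicate 1, but it depends on the quantification: in the second one, made straight from reads, it was 1.06-fold and 1.00-fold. Lama2 was thus clearly ahead of Lama4 by one quantification and level with it by the other. Endothelial markers, 9 of 9 of which were at 1 TPM or more, summed to 225.8 TPM in replicate 2 against 230.6 TPM in replicate 1; their part in the Lama4 level was not tested.

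The other alpha chains were lower. Lama5, a chain of epithelia, vessels and the neuromuscular synapse, had 17.34 TPM in replicate 2 and 13.17 TPM in replicate 1, which is 7.78 ± 1.71% of the family. Its TPM differed more than its counts did (2956 counts in replicate 2 and 2831 in replicate 1). Short transcripts annotated as processed transcripts, with no coding sequence, took 46.65% of its TPM in replicate 2 and 36.63% in replicate 1, but 8.2% and 0% by the second quantification and 3.69% and 2.65% of its expected counts. Lama3, the alpha chain of the epithelial laminin of hemidesmosomes, was at 1.62 and 1.16 TPM in replicates 2 and 1. Lama1, the chain of the early embryo, was with Lamc3 one of the lowest members, at 0.12 TPM in replicate 2 against 0.20 TPM in replicate 1, from 31 and 32 counts.

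Lamb1 and Lamb2 shared the beta chain pool. Lamb1, the widespread beta chain (chr12:31265234-31329644), had 116.53 TPM in replicate 2 and 111.17 TPM in replicate 1, and Lamb2, the chain concentrated at the neuromuscular synapse (chr9:108479736-108490530), had 72.72 and 73.41 TPM. Lamb1 held 60.4 ± 0.629% and Lamb2 38.8 ± 1.15% of beta chain TPM, a gap far larger than the spread between the animals and in the same direction in the second quantification, where Lamb1 held 67.8%. The gamma chains were nearly a single gene: Lamc1, present in most laminins, had 143.82 TPM in each library and 98.4 ± 1.08% of the family. Lamc3 made up 0.112 ± 0.110%. Summed over each family, alpha chains came to 192.9 TPM in replicate 2 against 200.4 TPM in replicate 1, beta chains to 191.5 and 185.4 TPM and gamma chains to 147.3 and 145.1 TPM. Over all transcript models, alpha chain RNA thus exceeded gamma chain RNA 1.35 ± 0.051-fold, and beta chain RNA did so 1.29 ± 0.0154-fold. By the second quantification the alpha ratio was 1.206 in replicate 2 and 1.292 in replicate 1, and the beta ratio 1.298 and 1.236. Protein-coding models held 63.81% and 62.96% of Lama2 TPM in replicates 2 and 1, and 74.41% and 69.16% of Lama4 TPM. They held more of Lamc1 TPM, at 88.4% and 90.74%, and of Lamb1 TPM, at 93.81% and 91.42%. The trimer has 1 chain of each, but ratios over protein-coding models alone were not taken, so the balance of coding RNA is not shown.

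The linkers between the laminin sheet and the collagen network were of similar abundance to the major laminin chains. Nid1 (nidogen-1, chr13:13437551-13512269) had 132.91 TPM in replicate 2 and 130.85 TPM in replicate 1, and Nid2, its paralog, 65.48 and 60.26 TPM. Nid1 took 67.7 ± 1.04% of nidogen TPM. The count of Nid2 carries an overlap: Rtraf, on the other strand, had 1429.85 counts in replicate 2 and 1476.81 in replicate 1, 20.3% of the mean count of Nid2, and whether counting used strand is not stated. Hspg2, which encodes the large heparan sulphate proteoglycan perlecan (chr4:137468769-137570630), had 148.87 TPM in replicate 2 and 137.08 TPM in replicate 1. With 47303 and 47903 counts it drew the most reads of any member.

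**Figure D2:**
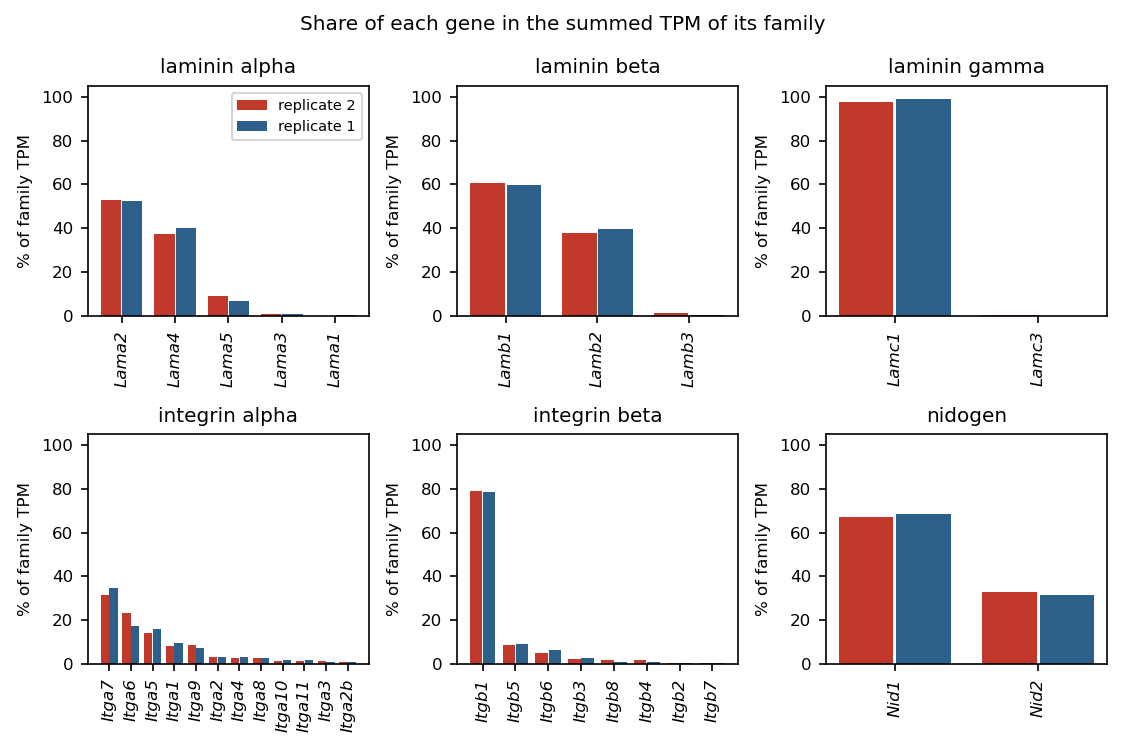
Percent of the summed TPM of its family that each gene shown held (linear axis from 0), in replicate 2 (red, left bar) and replicate 1 (blue, right bar), in 6 families. Lamc1 and Itgb1 dominate theirs at 98.4% and 78.9%, whereas the laminin alpha, laminin beta and nidogen pools are each divided between 2 main genes and the integrin alpha pool is spread over several.

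Other basement membrane genes were present in number. Of a list of 23, 20 were at 1 TPM or more in both libraries. The highest were Sparc, a collagen-binding matricellular protein, at 1025.64 TPM in replicate 2 against 972.28 TPM in replicate 1, and Col4a1, a chain of collagen IV, at 400.76 and 395.15 TPM. Its partner chain Col4a2 had 195.97 TPM in replicate 2 and 195.6 TPM in replicate 1. By alignment-based TPM over all transcript models, Col4a1 thus exceeded Col4a2 by 2.03 ± 0.0175-fold in these libraries. This ratio was not taken by the second quantification. Col15a1, a collagen of the muscle and vessel basement membrane, and Pxdn, the peroxidase that cross-links collagen IV, followed at 121.69 and 61.99 TPM in replicate 2, against 137.53 and 61.06 TPM in replicate 1. The 3 below 1 TPM were Col4a3, Col4a4 and Col4a6, chains of collagen IV in other basement membranes.

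Turning to the receptors, Itgb1 was the most abundant of all members. Itgb1 (chr8:128685654-128733200), the beta subunit shared by the laminin and collagen integrins, had 195.72 TPM in replicate 2 and 178.38 TPM in replicate 1 (187.1 ± 12.3), more than 98.6% of protein-coding genes. It held 78.9 ± 0.544% of integrin beta TPM. The alpha subunits that pair with it, 11 of the 12 members, summed to 189.5 TPM in replicate 2 against 170.4 TPM in replicate 1. Their sum was 0.968 of the Itgb1 level in replicate 2 and 0.955 in replicate 1. Adding Itgav, which also pairs with Itgb1 and with other beta subunits, brought the ratio to 1.12 in each. These sums hold all transcript models. Protein-coding models held 98.32% of Itgb1 TPM in replicate 2 and 98.52% in replicate 1, and 88.26% and 89.85% for Itga7. For Itga6 they held 60.46% and 57.18%, and for Itga1 48.5% and 46.14%. The ratio over protein-coding models alone was not taken.

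The alpha subunits were grouped by their ligands. Those for laminin (Itga3, Itga6 and Itga7) made up 56.26% of integrin alpha TPM in replicate 2 and 53.45% in replicate 1. Those for collagen (Itga1, Itga2, Itga10 and Itga11) made up 14.26% and 16.37%, and those for fibronectin's arginine-glycine-aspartate site and its like (Itga5, Itga8 and Itga2b) 17.67% and 19.89%, again in replicates 2 and 1. Itga4 and Itga9, which bind fibronectin, VCAM1 and other ligands, made up the remaining 11.82% in replicate 2 and 10.29% in replicate 1. Laminin-binding subunits were thus the largest of these 4 groups of members in both animals. Alpha subunits whose symbols carry no number are in neither the groups nor the total. Among these, Itgav had 30.77 TPM in replicate 2 and 29.86 TPM in replicate 1.

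Itga7, the muscle laminin receptor (chr10:128933818-128958282), led the alpha subunits at 60.61 TPM in replicate 2 against 60.22 TPM in replicate 1, or 33.3 ± 2.28% of the family. Itga6, a laminin receptor of epithelia, endothelium, Schwann cells and myogenic progenitors, came second at 44.64 TPM in replicate 2 against 29.94 TPM in replicate 1. By gene TPM, which holds all transcript models, the order of these genes in replicate 2 depended on the quantification. There protein-coding models held 88.26% of Itga7 TPM and 60.46% of Itga6 TPM by the alignment-based tables. By the second quantification they held 86.94% and 48.14%. By the alignment-based tables Itga7 was 1.36-fold above Itga6 in replicate 2 and 2.01-fold in replicate 1, whereas by the second quantification its ratio to Itga6 was 0.931 in replicate 2 and 1.44 in replicate 1. The third laminin receptor, Itga3, was low at 2.25 and 1.94 TPM in replicates 2 and 1.

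Below these came Itga5, the fibronectin receptor, at 27.22 TPM in replicate 2 against 27.77 TPM in replicate 1. Itga1, a collagen receptor, had 16.05 and 16.45 TPM, and Itga9, which binds tenascin and other ligands, had 17.01 and 12.49 TPM. By these values the 2 genes were not ordered consistently between the libraries. The second quantification put Itga9 above Itga1 in each library, at 37.56 against 23.54 TPM in replicate 2 and 31.13 against 23.52 TPM in replicate 1. Expected counts, not divided by length, put Itga1 above Itga9 in each, at 2991.91 against 2713 and 3201.25 against 2412. The order thus depended on the measure. Both genes carry overlaps, since Pelo on the same strand had 11.9% of the mean count of Itga1 and the antisense gene Gm2415 had 5.44% of that of Itga9. The remaining alpha subunits ranged from 1.58 TPM (Itga2b in replicate 2) to 6.07 TPM (Itga2 in replicate 2). Itga2 had 6.07 TPM in replicate 2 and 5.75 in replicate 1, Itga4 had 5.57 and 5.24, Itga8 4.96 and 4.59, Itga10 2.88 and 2.76, and Itga11, a fibroblast collagen receptor, 2.25 and 3.24. In this order the library values of Itga10 and Itga11 overlapped and those of Itga11 and Itga3 met at 2.25 TPM, while the others did not overlap. The second quantification did not keep the order of Itga2, Itga4 and Itga8, whose means there were 7.36, 8.00 and 8.14 TPM with overlapping values. Of the platelet subunit Itga2b, only 60 and 74 counts were found in replicates 2 and 1, and by the alignment-based tables a short processed transcript held the largest share of its TPM. Among 5 megakaryocyte and platelet markers only Pf4 reached 1 TPM, at 37.26 TPM in replicate 2 against 34.29 TPM in replicate 1.

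Besides Itgb1, Itgb5 and Itgb6 were the beta subunits above 10 TPM. Itgb5, an alpha v partner, had 21.88 TPM in replicate 2 and 20.47 TPM in replicate 1. Itgb6, an alpha v partner known mainly from epithelia that activates latent TGF-beta, had 11.92 TPM in replicate 2 and 14.77 TPM in replicate 1, lower in the library with the higher epidermal markers. Itgb3, the partner of alpha v and of the platelet subunit, had 5.26 and 6.54 TPM. Itgb8, a further alpha v partner, had 4.81 TPM in replicate 2 and 2.52 in replicate 1, and Itgb4, the hemidesmosome and Schwann cell partner of alpha 6, had 4.37 and 2.52. The leukocyte subunits Itgb2 and Itgb7 were lowest at 1.39 and 1.55 TPM in replicate 2, against 1.18 and 0.85 TPM in replicate 1. Itgav itself, whose symbol carries no number and which was therefore no member, had 30.77 TPM in replicate 2 and 29.86 TPM in replicate 1. Of the 8 further integrin genes looked up, 3 were at 1 TPM or more in both libraries.

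Genes that act with these receptors were largely present. All 13 genes of a list of other laminin receptors and the dystroglycan complex were at 1 TPM or more in both libraries, led by Dag1 (dystroglycan) at 160.38 TPM in replicate 2 against 163.22 TPM in replicate 1. Itgb1 was thus 1.22-fold Dag1 in replicate 2 and 1.09-fold in replicate 1. Of 16 genes found that build the laminin-binding sugar on dystroglycan, 15 reached that level. Of 21 adaptors that link integrins to actin or set their activity, 20 did, with Itgb1bp2 (melusin, a striated muscle protein that binds the beta 1 tail) highest at 289.42 TPM in replicate 2 against 284.98 TPM in replicate 1. Tns1 (tensin), Fermt2 (kindlin-2), Ilk and Pxn (paxillin) followed, at 68.5 to 98.97 TPM in replicate 2 and 71.43 to 108.22 TPM in replicate 1. Among 7 other integrin ligands, Postn (periostin) had 679.54 TPM in replicate 2 and 659.52 TPM in replicate 1, and Fn1 (fibronectin) 292.94 and 268.21 TPM.

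At the transcript level, the transcripts that carry the exons shown above had uneven shares. Shares are the percent of a gene's TPM that the quantifier gave each transcript. For Itga7, the leading transcript was Itga7-201, which carries X2 and the B tail, at 48.05% in replicate 2 and 47.08% in replicate 1. Itga7-202, with X1 and the B tail, had 8.92% and 10.69%. Taking these 2 alone, X2 made up 84.34% in replicate 2 and 81.5% in replicate 1, and by the second quantification 81.21% and 77.87%. Both quantifications thus put the X2 exon, the form of adult skeletal muscle, well above X1 in each animal, with X1 still present at 4 days.

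Itga7-204, which carries the A exon, had 31.29% of the gene's TPM in replicate 2 and 32.08% in replicate 1. Of the 3 protein-coding transcripts it made up 35.45% and 35.7%, but only 21.1% and 19.81% by the second quantification. This transcript is annotated with 4 exons and 984 nt, so that reads from the rest of an A-tailed messenger count towards the others, and its share is not the rate at which the exon is included. By expected counts, which are not divided by length, it held 11.04% in replicate 2 and 11.15% in replicate 1. A retained-intron transcript, Itga7-203, held 9.48% and 8.58% of TPM.

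For Itgb1, the beta 1A transcript Itgb1-201 led with 78.1% in replicate 2 and 80.04% in replicate 1. The transcript with the muscle D exon, Itgb1-204, held 20.22% and 18.48%. Of these 2, the D form was 20.57% in replicate 2 and 18.76% in replicate 1, and 21.78% and 19.72% by the second quantification. It too is a partial model, of 711 nt and 4 exons, and by expected counts the D form was 4.09% in replicate 2 and 3.66% in replicate 1. The transcript with the D exon was thus given reads in both animals, at 660.26 and 590.28 counts in replicates 2 and 1. These can come from any of its 4 exons, and reads over the D exon itself were not counted. Non-muscle cells, which a bulk sample includes, make beta 1A, and their part in its share was not tested.

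Itga6 showed the A tail above the B tail. The A transcript Itga6-201 made up 85.55% of the A and B pair in replicate 2 and 86.5% in replicate 1, and 63.14% and 65.88% by the second quantification. The quantifier's own error is large here, since the B transcript Itga6-202 had 410.9 counts with a posterior SD of 182.06 in replicate 2 and 260.08 counts with a posterior SD of 135.45 in replicate 1. A processed transcript, Itga6-203, held 37.16% and 38.09% of the gene's TPM in replicates 2 and 1.

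**Figure D3:**
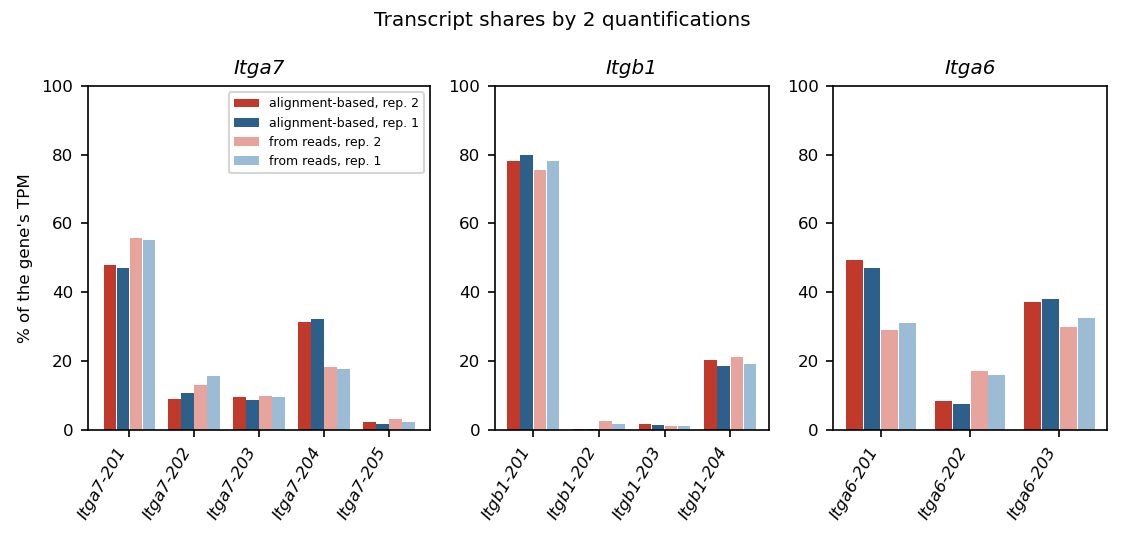
Percent of the gene's TPM given to each transcript of Itga7 and Itgb1 and to the 3 transcripts of Itga6 with 5% or more by the alignment-based tables in a library (linear axis from 0). Dark bars are the alignment-based quantification and pale bars the one made from reads, with replicate 2 in red and replicate 1 in blue; the libraries lie close together, while the quantifications part for Itga7-204 (31.29% against 18.34% in replicate 2) and for Itga6-201.

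Several long genes had a sizeable share of their TPM, and a smaller share of their reads, in transcript models with a retained intron, which are shorter than the full-length ones. By TPM the share was 46.67% in replicate 2 and 47.3% in replicate 1 for Itga1, 36.19% and 37.04% for Lama2, and 25.6% and 30.85% for Lama4. By the second quantification it was 41.26% in replicate 2 and 40.7% in replicate 1 for Itga1, 23.26% and 24.58% for Lama2, and 24.85% and 30.56% for Lama4. By expected counts, not divided by length, it was 20.62% in replicate 2 and 21.41% in replicate 1 for Itga1, 8.29% and 9.29% for Lama2, and 5.77% and 6.3% for Lama4. The share of TPM was 1.55% and 1.35% for Itgb1 and 0.7% and 0.79% for Nid1. For Lama2, the full-length transcript Lama2-201 (9614 nt, 65 exons) led with 42.61% in replicate 2 and 43.39% in replicate 1. For Lama3, the long transcript Lama3-201 led with 51.38% in replicate 2 and 76.15% in replicate 1, from 236.31 and 269.9 counts. The shorter Lama3-202 (5551 nt) had 116.69 counts with a posterior SD of 13.54 in replicate 2. In replicate 1 it had 44.1 counts with a posterior SD of 14.9. By mean share in the alignment-based tables, the leading transcripts of the other members were protein coding except for those of Itga2b and Itgb7.

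The 2 animals were alike in most of these genes. Ratios of replicate 2 over replicate 1 were taken from expected counts scaled by TMM, for the 29 members with a mean count of 100 or more. Their median log2 ratio was 0.04, against -0.01 over all 12421 genes at that count, and the median size of the log2 ratio, whatever its sign, was 0.085 against 0.125. Over 1.5-fold stood 5 members (17.2%), against 3.99% of all genes tested. All 5 were higher in replicate 2, where the share over all genes was 3.13%, and none of the 29 was lower by that fold.

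The 4 of them described here are subunits known, among other places, from epithelia or Schwann cells. Not all members described above as epithelial passed 1.5-fold. Itgb6 had a log2 ratio of -0.31 and Lama5 of 0.14, and Lama3 also stayed under that fold. Lamb3, the beta chain of the epithelial laminin of hemidesmosomes, had 177 counts in replicate 2 and 69 in replicate 1, a log2 ratio of 1.44 (95% counting interval 1.03 to 1.86). Lama3, the alpha chain of the same laminin, had 353 and 314 counts, a log2 ratio of 0.25 (0.03 to 0.47). Itgb8 had 964 counts in replicate 2 and 509 in replicate 1 (log2 1.00, 0.85 to 1.16), and Itgb4, which anchors epidermis to this laminin, had 617 and 412 (0.66, 0.48 to 0.85). Itga6, its partner, had 4254.89 counts in replicate 2 and 2979.74 in replicate 1 (0.60, 0.53 to 0.66), just past the 1.5-fold line at 1.51-fold, and was under it with DESeq2 size factors, with the counts of the second quantification and with TPM as deposited. Intervals cover counting error only. The Lamb3 gene overlaps G0s2 on the other strand, which had 375 counts in replicate 2 and 416 in replicate 1, more than Lamb3 itself. It also overlaps Hsd11b1 on the other strand and Gm37691 on the same strand, with 54.5% and 50.0% of its mean count.

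**Figure D4:**
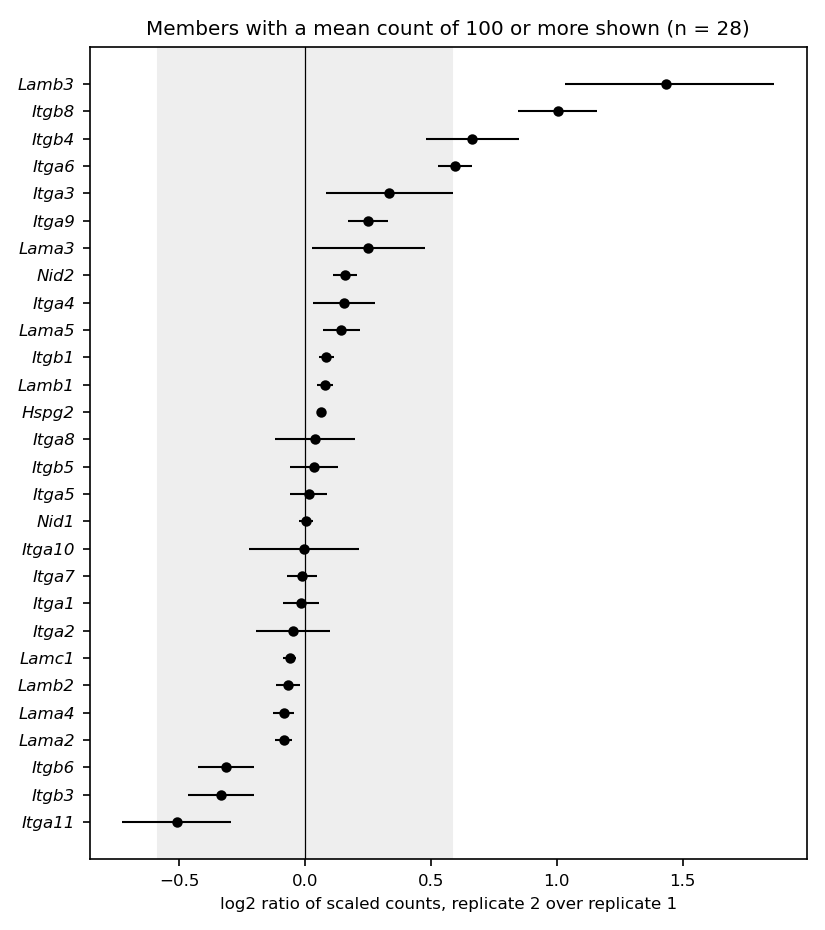
Log2 ratio of TMM-scaled counts, replicate 2 over replicate 1, for all but 1 of the 29 members with a mean count of 100 or more, with exact 95% counting intervals; the grey band spans 1.5-fold either way. Lamb3, Itgb8, Itgb4 and Itga6 lie to the right of the band and none lies to its left; abundant genes such as Lamc1, Nid1 and Itga7 sit close to 0.

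Markers of some other cell types also differed between the libraries. All 10 epidermis and hair follicle markers were over 1.5-fold higher in replicate 2, with a median log2 ratio of 8.24. Krt5, a basal keratin, had 60.83 TPM in replicate 2 and 0.16 TPM in replicate 1, and Krt14, its partner, 43.11 and 0.06 TPM. Col17a1, a hemidesmosome collagen, had 4.58 and 0.92 TPM. Of the 6 Schwann cell markers 4 were over 1.5-fold higher in replicate 2, among them the myelin genes Mbp, with 204.25 TPM in replicate 2 and 85.35 in replicate 1, and Prx, with 35.6 and 15.56. The lineage factor Sox10 had 6.6 and 5.59 TPM. No marker of endothelium (9), mural cells (9), fibroblasts (7) or leukocytes (7) passed that fold. Of the remaining lists, Myod1, a myogenic factor, and B3galnt2, an enzyme of dystroglycan glycosylation, were lower in replicate 2 by over 1.5-fold, with log2 ratios of -0.73 and -0.63. The part of epidermal or nerve RNA in the 5 members' ratios was not tested.

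**Figure D5:**
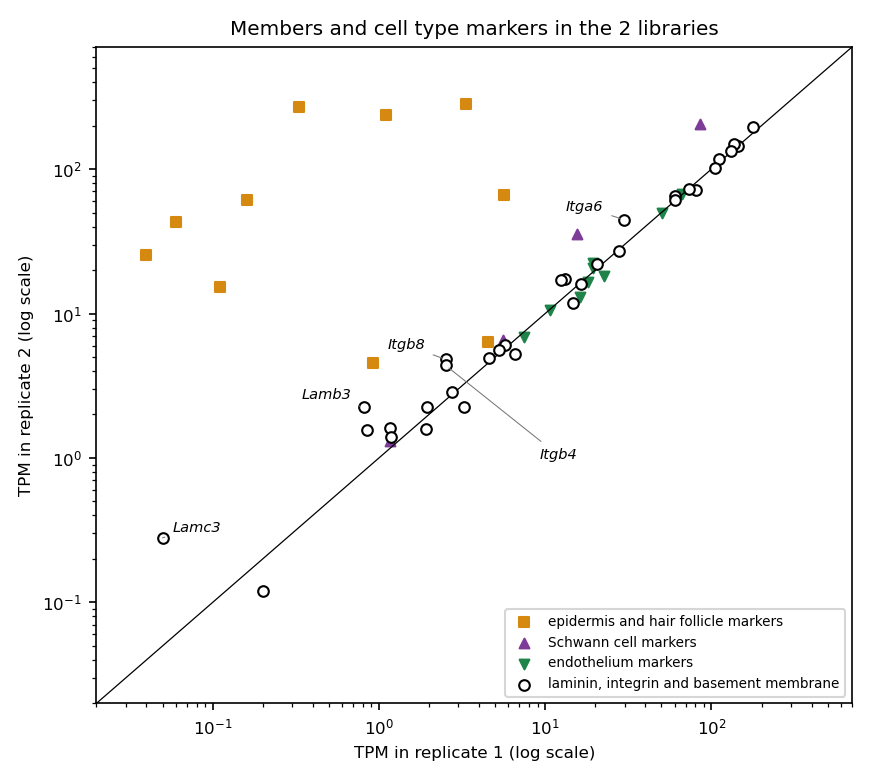
TPM in replicate 2 (vertical, log axis) against replicate 1 (horizontal, log axis) of all but 1 of the 34 members (open circles) and of most of the epidermis and hair follicle, Schwann cell and endothelium markers; the line marks equal levels. All 10 epidermal markers lie above the line, most of them far above it, Mbp and Prx stand clear of it among the Schwann cell markers, the endothelial ones lie near it, and Lamb3, Lamc3, Itgb8, Itgb4 and Itga6 lie above it among the members.

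Members lower in replicate 2 were fewer and moved less. Itga11 had 298 counts in replicate 2 and 449 in replicate 1, a log2 ratio of -0.51 (95% counting interval -0.73 to -0.30). Itgb3 and Itgb6 had log2 ratios of -0.33 and -0.31. The 5 members under a mean count of 100 were Itga2b, Itgb2, Itgb7, Lamc3 and Lama1. Of these Lamc3, a gamma chain of laminins in nerve and retina, had 44 counts in replicate 2 and 8 in replicate 1. The chief fibre-surface genes were nearly level between the animals: the log2 ratio was -0.09 for Lama2, -0.06 for Lamc1, 0.08 for Lamb1, -0.01 for Itga7 and 0.09 for Itgb1.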

How the data were processed

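The members, gene lists, tests and alternatives were chosen with earlier results of these data known. Per the deposited notes, reads were mapped to mm10 and genes follow GENCODE M21. The programs, their versions and the use of strand in counting were not given in the sources used here. Per the file headers, the gene and transcript tables the authors deposited give an expected count and a TPM per entry, and each transcript's percent of its gene. A second deposited transcript table, made from reads, holds estimated counts and TPM, summed here per gene. The gene table has 81881 entries, of which 26248 have a bare number for a name and held 6 counts in replicate 2 and 4 in replicate 1; these and 96 ERCC controls (0.635% and 0.65% of counts) were left out of library sizes.

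Replicates come from the labels, which give 1 library of 300 ng RNA per animal. Levels are TPM as deposited, and shares are within a library. Ratios used expected counts scaled by TMM (edgeR 4.0.16 in R 4.3.3), a prior count of 0.5 being added. Counts were rounded to whole numbers for the intervals and for DESeq2 size factors only. A gene entered when its mean count reached 100, and was called past 1.5-fold. Its 95% interval (exact, Clopper-Pearson) comes from how its reads divide between the libraries and covers counting error only. The scaling and fold calls were checked on simulated counts with 200 changed genes. These counts held counting error only (Poisson) and no spread between animals. The check therefore cannot show how often 2 animals differ by 1.5-fold without a change. DESeq2 1.42.0 size factors, ERCC sums, other filters, the second quantification and single libraries were alternatives. The other members were all named; of 17 other lists (162 symbols, 1 not found) up to 5 of the highest and those over 1.5-fold were named. Sequences are from GENCODE M21 transcripts, and overlaps between genes were taken over whole gene spans, not exons. The level of 1 member and of some list genes is not reported here.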

Additional observations from a re-analysis of the deposited data

How the results depend on the processing

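No paired analysis was possible because there is 1 group with 1 library for each replicate number. Of 68 alternative values, 38 stayed within the spread or 1.5 times the count, 30 moved and 0 reversed. The 38 include the chain and transcript shares taken from a single library. Each of 2 values lies within their SD of the mean by arithmetic, so these could not have moved and are no check. The results checked were shares, counts and a median, and no order between genes was among them. Orders that changed with the quantification, such as that of Itga7 and Itga6 in replicate 2, are given above. With the second quantification the share of Lama2 was 47.35%, of Lamb1 67.79%, of Nid1 69.58%, of Itga7 27.44%, of Itgb1 76.44%, of transcript Itga7-201 55.45% and of Itgb1-201 76.77%. With expected counts, not divided by length, these were 54.24%, 70.11%, 75.69%, 22.44%, 74.71%, 69.64% and 95.76% in the same order. Itga7 held 28.15% with Itgav and 5 leukocyte subunits added, and Itga7-201 53.42% among protein-coding transcripts. At 2-fold in place of 1.5-fold, 3 members passed; other settings gave 4 to 7. The members' median log2 ratio was 0.12 when scaled by ERCC sums and 0.02 to 0.09 otherwise; ERCC scaling shifts all genes by 0.08. Members at 1 TPM or more numbered 30 to 32. The exon and transcript-type shares under other settings, and the fold count by TPM as deposited, were added after seeing the data. With 2 libraries the SD rests on 1 difference, and members under 100 counts are limited by depth.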
